A study of Mus musculus with 22 samples.

Results

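The comparison set 12 mouse bladders in which a mutant Trp53 allele had been switched on against 7 bladders without such a mutation, all from mice that had been given the bladder carcinogen BBN. The members were chosen by their titles: every array whose title names Trp53 R270H or R172H together with a Cre driver entered the mutant side. Of the 22 arrays of the series, 19 came from BBN-treated mice, 12 of these were mutants and 7 were not, and the 3 normal arrays were left out. Total RNA of each bladder was read on 1 Agilent array in 1 colour, so a level below is log2 of the spot's intensity minus the 75th percentile of its array, and a difference is the mutant mean minus the control mean on that log2 scale.

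All 12 mutants carried a tamoxifen-inducible Cre (CreERT2), an LSL-RFP reporter and 1 mutant Trp53 allele beside 1 wild-type allele, and had received tamoxifen. In 3 of them Cre was driven by the Krt5 promoter with Trp53R270H/+, in 4 by Krt5 with Trp53R172H/+, in 2 by Upk2 with Trp53R270H/+ and in 3 by Upk2 with Trp53R172H/+. The 7 other arrays were of different kinds. The 4 Cre controls (2 Krt5-CreERT2 and 2 Upk2-CreERT2) had the reporter, tamoxifen and wild-type Trp53. The 3 remaining arrays, called Trp53 het here, are titled Trp53+/- while their genotype is given as Trp53R270H/+; these mice had no Cre and no tamoxifen. By genotype and treatment labels the mutants differ from the Cre controls in the Trp53 allele. From Trp53 het they differ by Cre, reporter, tamoxifen and the active allele together. Labelled sex was not balanced. All Cre controls but Krt5-Cre 1 are labelled female, and all Trp53 het arrays male. Of the mutants, Krt5 R270H 1, Krt5 R172H 2 and 4 and Upk2 R172H 2 are labelled female and the others male. BBN was given for 24 weeks and bladders were taken at 8 months of age; the tissue is labelled as bladder tumor, and the whole organ was used. The Krt5 promoter is active in basal cells and the Upk2 promoter in urothelial cells of the luminal lineage, so an activated allele is confined to the cells that the driver reaches, while an array reads all cells of the bladder.

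The p53 protein, encoded by Trp53, is a transcription factor that is stabilised after DNA damage and then induces genes of cell cycle arrest, repair and cell death. Among the genes it induces is Mdm2, a ubiquitin ligase that in turn drives p53 to degradation. Trp53 R270H changes a residue that touches DNA and Trp53 R172H one that holds the DNA-binding domain in shape. BBN causes invasive urothelial tumors in mice, often with squamous differentiation.

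The 19 arrays lay on 3 slides, and no slide was balanced. Slide 1 held 2 mutants and 4 others, slide 2 held 5 mutants and no other, and slide 3 held 5 mutants (all R172H) and 3 others. Of the 59305 probe spots, 42.4% to 57.2% were well above background on the arrays of slides 1 and 2, and between 57.6% and 63.2% on slide 3. Slide 3 was read on another scanner, and its intensities were extracted with another protocol of the scanning software. The share did not separate the sides, at 54.4% ± 7.48 (SD, n = 12) in mutants and 53.4% ± 7.52 (SD, n = 7) in others (exact two-sided permutation test, p = 0.774), and no spot was saturated. Expression of sex-linked genes went against the labelled sex on 8 of the 19 arrays: all 4 Krt5 R172H, Upk2 R172H 1 and 2, Upk2-Cre 2 and Trp53 het 3. The last pair are controls of different kinds that lie on slide 1 and go against their labels in opposite directions. Opposite directions also held within Krt5 R172H 1 and 2 (slide 2), Krt5 R172H 3 and 4 (slide 3) and Upk2 R172H 1 and 2 (slide 3). Whether arrays were exchanged was not tested. Values without these arrays are given below for the squamous, endothelial, matrix, transition and foreign compound gene lists. They are also given for Mfap3l, Anxa9 and the gene count with slide as a block. Most other values are given with all arrays only. Further, 2 pairs of controls (both Upk2-Cre arrays and Trp53 het 1 and 2) shared an animal code; these pairs correlated at 0.944 and 0.917, within the 0.883 to 0.963 of the other pairs of a group. The labels do not say whether the 2 arrays of such a pair came from different mice, so p-values measure the spread between these arrays.

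No single gene passed the test between mutant and other BBN bladders. Among 16200 genes tested with limma, 0 (0%) reached an adjusted p of 0.05. At an unadjusted p under 0.05 there were 1039 genes (6.41%), of which 361 (2.23%) were higher and 678 (4.19%) lower in mutants. No gene had all 12 mutants above or all 12 below all 7 other arrays (0% in each direction). The median difference over all genes was -0.05, with 43.5% of genes above 0. In simulated data of the same 12 and 7 arrays, 85% of planted 4-fold changes and 54% of planted 2-fold changes were recovered. The simulated noise was independent between arrays and had the spread within single groups. Slide and group differences were left out of it, so these shares may overstate recovery in the real arrays. The leading genes and gene groups below are therefore given with their values and are not called changed unless a passing test is named. The gene lists were chosen with earlier results of these data known. List counts set beside the share over all genes are thus descriptions and not tests. Within a slide, the mutant minus other difference could be formed on slide 1 (2 mutants against 4 others) and slide 3 (5 against 3); over genes the differences of these slides correlated at -0.076, which is a description across genes and not a test.

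Trp53 itself was lower in mutants. Its level ran from -1.63 to 1.21 with a median of -0.61 in the 12 mutants. The 4 Cre controls were at -0.08, 0.8, 0.7 and 1.58, and the 3 Trp53 het arrays at -0.42, 1.62 and 0.84. Thus 9 of the 12 mutants lay below every other array, while the highest mutant lay among the controls. The difference was -1.25 (SE 0.39, 2.38-fold; limma adjusted p = 0.755). It was -1.28 against the Cre controls and -1.21 against Trp53 het, -2.16 within slide 1 and -0.44 within slide 3. Group means were -0.79 in Krt5 R270H, -0.33 in Krt5 R172H, -0.99 in Upk2 R270H and -0.23 in Upk2 R172H. The probe reads wild-type and mutant transcript alike, so these levels do not show how much of either was made.

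The genes p53 induces did not follow as a group. The p53 target list held 36 genes, 35 of which were tested. Of these, 13 were above 0, beside 43.5% of all genes, and the list's median was -0.06, beside -0.05 over all genes. At the unadjusted threshold 2 were higher and 2 lower, beside 2.23% and 4.19% of all genes. The higher ones were Apaf1, the scaffold on which caspase 9 is activated, at 0.58 (SE 0.21, adjusted p = 0.755 by limma), and Eda2r, a receptor of the tumor necrosis factor family, at 1.09 (adjusted p = 0.755 by limma). The lower ones were Rrm2b, a ribonucleotide reductase subunit for repair, at -0.44, and Aen, an exonuclease of apoptosis, at -0.35.

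Cdkn1a (p21), the inhibitor of cyclin-dependent kinases that p53 induces on damage, overlapped widely between the sides. It ran from 0.27 to 3.38 with a median of 1.87 in mutants. The Cre controls were at 2.52, 3.13, 1.87 and 2.94, and Trp53 het at 1.32, 2.9 and 1.98. The difference was -0.58 (SE 0.34, limma adjusted p = 0.778), and a second probe gave -0.17. Mdm2 was 3.14 ± 0.33 (SD, n = 12) in mutants and 3.06 ± 0.15 (SD, n = 7) in others, a difference of 0.08.

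**Figure D1:**
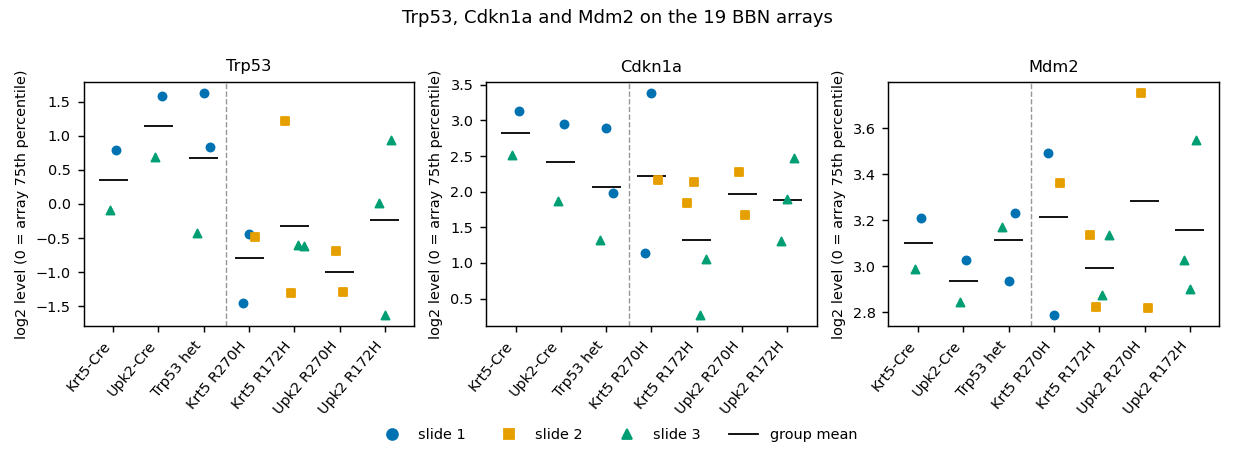
Level of Trp53, Cdkn1a and Mdm2 on each array, as log2 intensity minus the array's 75th percentile, by group. Each point is 1 array, coloured by slide, and a black line is the group mean; the dashed line parts the 7 other BBN arrays (left) from the 12 mutants (right). Trp53 had 9 mutants below every other array, Cdkn1a and Mdm2 overlapped between the sides.

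Cdkn1a and Aen are shown by sequence because both are direct p53 targets that the list turns on and both hold a p53 half-site just before the start of transcription. The sequences are the 250 bases before the start, from RefSeq on GRCm38.p6, 5′ to 3′ on the gene's strand, with each match to the p53 half-site in capitals.
Cdkn1a, chr17:29090729-29090978, plus strand: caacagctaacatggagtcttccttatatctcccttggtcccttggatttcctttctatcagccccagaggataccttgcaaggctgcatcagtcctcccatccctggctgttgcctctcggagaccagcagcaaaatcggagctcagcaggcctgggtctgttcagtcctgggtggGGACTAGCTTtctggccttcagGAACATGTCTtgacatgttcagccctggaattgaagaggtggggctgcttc
Aen, chr7:78895808-78896057, plus strand: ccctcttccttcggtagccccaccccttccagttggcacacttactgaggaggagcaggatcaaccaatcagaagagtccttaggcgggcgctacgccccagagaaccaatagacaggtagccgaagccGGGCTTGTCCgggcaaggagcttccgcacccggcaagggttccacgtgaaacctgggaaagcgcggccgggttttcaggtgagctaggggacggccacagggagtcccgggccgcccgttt
The half-site was searched on both strands. It was found in 8 of the 27 target genes that had a promoter entry (29.6%), against 1004 of the 12794 tested genes with one (7.85%). A match describes these letters and is not a measured binding site.

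Among 21 regulators and relatives of p53, 1 was higher and 4 lower at the unadjusted threshold, with a median of -0.07. Of all genes 2.23% were higher and 4.19% lower. Cdkn1c, a kinase inhibitor of the p21 family, was at 0.92 (adjusted p = 0.755 by limma). Besides Trp53, the lower ones were Trp73, a p53 relative, at -0.87, Mdm4, an inhibitor of p53, at -0.51, and Usp7, a deubiquitinase of Mdm2 and p53, at -0.32. Trp63, the relative that marks basal epithelium, differed by -0.28 (limma adjusted p = 0.868), and Cdkn2a, which encodes the Mdm2 inhibitor Arf, by -0.07.

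The smallest p-values of the comparison belonged to 3 genes that were lower in mutants. Soat2, an enzyme that esterifies cholesterol, ran from -3.73 to -1.36 with a median of -2.46 in mutants. It was at -1.94, -1.66, -0.48 and 0.17 in the Cre controls and at -1.48, -0.59 and -0.61 in Trp53 het. The highest controls stood well above all mutants and 10 of 12 mutants lay below every other array. The difference was -1.59 (SE 0.32, 3.01-fold; limma adjusted p = 0.495), and it was of like size within slide 1 (-1.67) and slide 3 (-1.46).

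Abca7, a lipid transporter of the cell membrane, varied little within each side. Mutants ran from 2.27 to 3.05 with a median of 2.59. Cre controls lay at 3.08, 3.42, 2.96 and 3.22, and Trp53 het at 3.23, 3.36 and 3.48, so 11 of 12 mutants lay below every other array. The difference was -0.64 (SE 0.13, 1.56-fold; limma adjusted p = 0.495), a second probe gave -0.61, and the slides gave -0.61 and -0.44.

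Mttp, which loads lipid onto apolipoprotein B, was dim, being well above background on 8 of 12 mutant and 6 of 7 other arrays. Mutants ran from -4.31 to -2.87 with a median of -3.81. The Cre controls were at -2.4, -2.79, -2.25 and -2.64, and Trp53 het at -2.96, -1.97 and -2.39, so the 4 Cre controls lay above all mutants. The difference was -1.14 (SE 0.22, 2.20-fold; limma adjusted p = 0.495); with another background correction (normexp) it was -0.63.

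The next lower genes by p-value were Cyb5rl at -0.97, Trappc6a, a subunit of a vesicle tethering complex, at -0.62, Znrd1as at -0.58, the small nucleolar-type RNA Scarna13 at -1.0 and Mycbpap at -1.26. Wnt7b, a secreted Wnt ligand of epithelium, was at -0.79, with 8 of 12 mutants below every other array, but its second probe gave -0.26. Cdc37l1, related to an Hsp90 cochaperone, was at -0.55 while its other probes gave -0.12 to -0.06. None of these passed the adjusted test.

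On the higher side the leading gene was Ang2, a ribonuclease of the angiogenin family (not angiopoietin). It was dim, well above background on 10 of 12 mutant and 3 of 7 other arrays. Mutants ran from -3.65 to -0.86 with a median of -3.0. Cre controls gave -3.13, -5.03, -4.1 and -5.39 and Trp53 het -3.64, -5.41 and -4.49, so 7 mutants lay above every other array and the highest controls lay among the mutants. The difference was 1.67 (SE 0.38, 3.18-fold; limma adjusted p = 0.755). It was 0.56 within slide 3 against 2.2 within slide 1, and 0.38 with the normexp background.

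Tm4sf1, a membrane protein of the tetraspanin-like kind found on endothelium and many carcinomas, was bright on all arrays. Mutants ran from 1.86 to 5.05 with a median of 3.82. Among controls, the Cre arrays were at 2.96, 2.02, 0.89 and 1.78, and Trp53 het at 3.35, 2.39 and 2.57, so 9 of 12 mutants lay above every other array. The difference was 1.54 (SE 0.38, 2.91-fold; limma adjusted p = 0.755), with 1.22 within slide 1 and 1.4 within slide 3. The Upk2 R270H mean, 4.88, was the highest of the 4 mutant groups.

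Il6, a cytokine of acute inflammation, was well above background on 11 of 12 mutant arrays and 3 of 7 others. Mutants ran from -4.3 to 0.06 with a median of -2.55. The Cre controls were at -4.24, -5.01, -7.11 and -5.41 and Trp53 het at -2.46, -5.38 and -3.49. The sides overlapped, since the highest Trp53 het array stood amid the mutants. The difference was 2.15 (SE 0.59, 4.44-fold; limma adjusted p = 0.755). Also among the leading higher genes were Egr4, an immediate-early transcription factor, at 2.02 (well above background on 9 of 12 mutant arrays and 3 of 7 others, so this size rests on dim spots), Tnfrsf9 (4-1BB), a T cell costimulatory receptor, at 2.01, Chst2, a sulfotransferase, at 1.11, Gpr39, a zinc-sensing receptor, at 0.93, Dipk1a at 0.75 and Cmtm2a at 0.58. Ddx19a, an RNA helicase, was at 0.58 while its second probe gave -0.08.

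**Figure D2:**
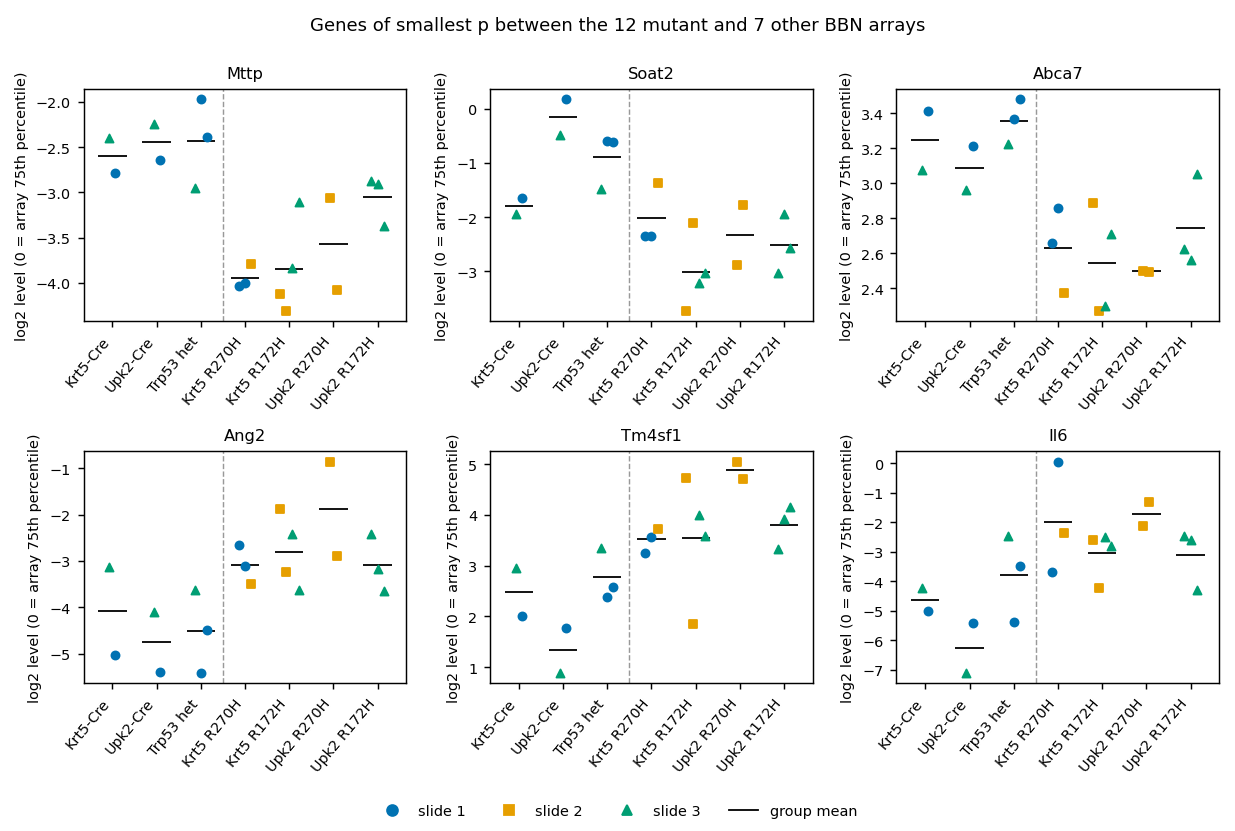
Level of 3 leading lower genes (Mttp, Soat2, Abca7) and 3 leading higher genes (Ang2, Tm4sf1, Il6) on each array, as log2 intensity minus the array's 75th percentile. Points are arrays coloured by slide, black lines group means, and the dashed line parts the 7 other BBN arrays (left) from the 12 mutants (right). Abca7 and Soat2 had 11 and 10 of 12 mutants below every other array, and each gene had at least 1 mutant among the controls.

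By genotype and treatment labels the Cre controls are the nearest match to the mutants, since they share driver, reporter, tamoxifen and BBN. Labelled sex was not balanced between them, as the Cre controls are mostly labelled female and the mutants mostly male. Against these 4 arrays 0 of 16200 genes (0%) passed, 1153 (7.12%) had an unadjusted p under 0.05, 421 (2.6%) of them higher and 732 (4.52%) lower. All 12 mutants lay above all 4 Cre controls for 9 genes (0.0556%) and below all 4 for 23 genes (0.142%). Against the 3 Trp53 het arrays 0 (0%) passed and 667 (4.12%) had an unadjusted p under 0.05. The comparisons share the 12 mutants, and those of mutants and of Trp53 het with Cre controls share the 4 Cre arrays, so their values are given side by side only.

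Mfap3l, a membrane glycoprotein, came nearest to passing. Mutants ran from 0.96 to 1.73 with a median of 1.25, and the Cre controls were at 2.6, 3.24, 2.08 and 2.58, with no overlap. Trp53 het was at 1.04, 1.43 and 1.24, inside the range of the mutants. The difference from the Cre controls was -1.33 (SE 0.21, 2.52-fold; limma adjusted p = 0.054). Anxa9, an epithelial annexin, was -1.97 ± 0.67 (SD, n = 12) in mutants and -0.42, 0.54, -0.06 and 0.59 in the Cre controls, with Trp53 het at -1.48, -2.89 and -1.64. The difference was -2.14 (SE 0.36, 4.39-fold; limma adjusted p = 0.103). Il1r2, a decoy receptor for interleukin 1, was 1.44 ± 1.02 (SD, n = 12) in mutants against 4.57, 5.73, 3.66 and 3.52 in the Cre controls and 1.94, -0.08 and 1.73 in Trp53 het, a difference of -2.93 from the Cre controls (limma adjusted p = 0.169). For all 3 genes the Cre controls stood above both mutants and Trp53 het. Without the 8 arrays of opposing sex the differences of Mfap3l and Anxa9 from the Cre controls were -1.35 and -1.84 (limma adjusted p = 0.857 for each).

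The genes of squamous differentiation, which build the cornified envelope of stratified epithelium, showed this pattern as a group. Of 31 tested genes 30 were below 0 in mutants against the other arrays, with a median of -0.93, while 56.5% of all genes were below 0. Leaving out 1 array at a time moved this median between -1.17 (without Krt5 R172H 2) and -0.58 (without Krt5-Cre 2). Only Krt4, a keratin of mucosal epithelium, at -0.84, and Casp14, a caspase of cornification, at -1.15 had an unadjusted p under 0.05, and none passed. Of all genes 4.19% were lower at that threshold. Without the 8 arrays of opposing sex the median was -0.66 and 0 squamous genes reached the threshold. With all arrays, the list's median against the Cre controls was -1.87. At the unadjusted threshold 19 of 31 genes were lower, against 4.52% of all genes. Against Trp53 het the median was 0.0 and 0 genes reached that threshold in either direction; Trp53 het against the Cre controls gave a median of -1.8. Without Upk2-Cre 2 and Trp53 het 3 the median from the Cre controls was -1.55 with 6 genes lower at that threshold, and without all 8 arrays of opposing sex it was -1.31 with 9 lower. Since the RNA came from whole bladders, fewer cells of a type and less RNA per cell cannot be told apart here or in any group below.

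Lor (loricrin), the main protein of the cornified envelope, shows the spread behind these medians. Mutants ran from -0.12 to 6.65 with a median of 2.5. The Cre controls were at 4.41, 6.66, 5.92 and 7.65, and Trp53 het was at 2.14 ± 0.19 (SD, n = 3). Mutants reached from below the lowest Trp53 het array up to the level of the Cre controls. The difference from the Cre controls was -3.23 (9.40-fold, limma adjusted p = 0.394). Cdsn, which holds corneocytes together, differed from the Cre controls by -3.55, Klk7, a protease that cleaves such junctions, by -3.23, and Krt10, the keratin of suprabasal epidermis, by -1.83; against Trp53 het the differences were 0.97, -0.13 and 0.27. Klk7 was well above background on 5 of 12 mutant arrays, 4 of 4 Cre controls and 1 of 3 Trp53 het arrays.

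**Figure D3:**
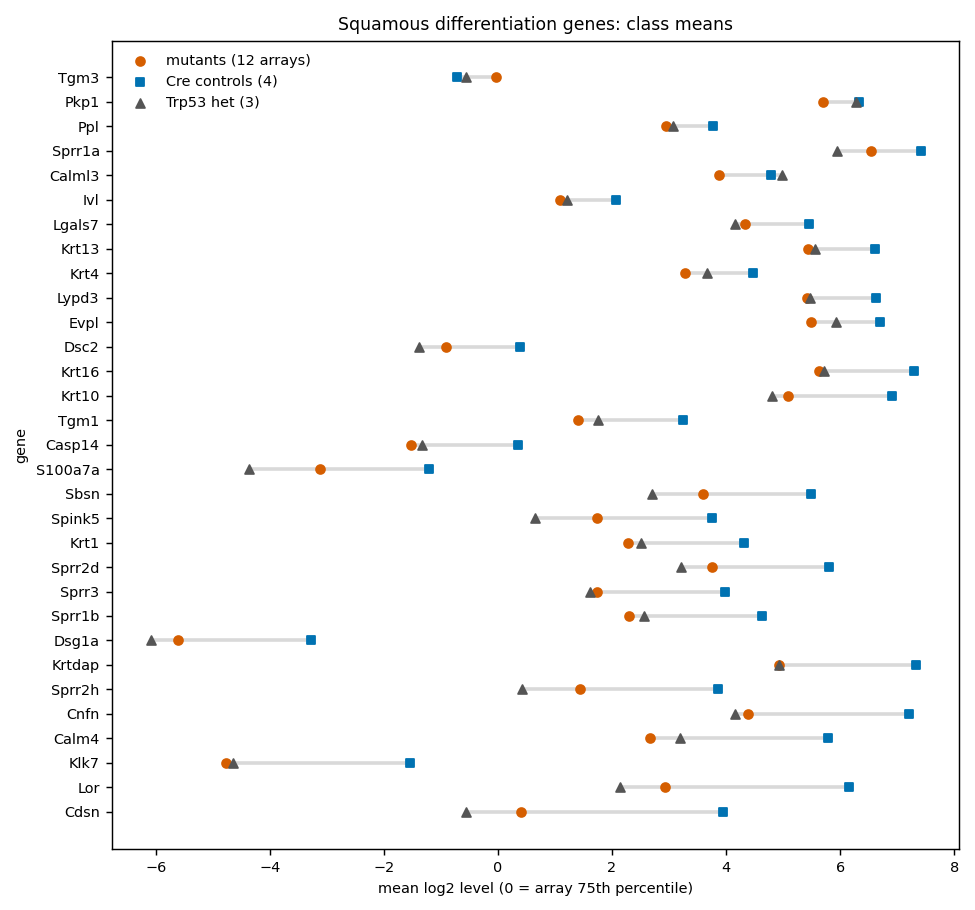
Mean level of the 31 tested squamous genes in the 12 mutants, 4 Cre controls and 3 Trp53 het arrays, as log2 intensity minus the array's 75th percentile. Each row is 1 gene and each point the mean of 1 class. For most genes the Cre control point lies to the right of the other points; the median differences of mutants were -1.87 from Cre controls and 0.0 from Trp53 het.

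Slide moved with the squamous level. The list's score, the median over its genes of each gene's level centred on its mean over the 19 arrays, was 2.22 and 2.23 in the Cre controls of slide 1, 0.54 and 0.64 in those of slide 3, and between -0.67 and -0.47 in Trp53 het. Mutants were at -0.73 and -0.46 on slide 1, between -3.22 and -0.1 on slide 3, and between -0.75 and 1.69 on slide 2, which held no control. Within each slide that held both, every mutant was below both Cre controls. Within slide 1 the median difference from the 4 other arrays was -1.53 and within slide 3 from the 3 others -1.22. In both slides 27 of the 31 genes were below 0, against 30.9% of all genes, and with slide as a block 11 were lower at the unadjusted threshold, against 3.46%.

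With slide as a block in the model, 57 genes passed against the Cre controls (limma adjusted p at or under 0.05): 56 were lower in mutants (0.346% of those tested) and 1 was higher (0.00617%). Against all 7 other arrays 0 passed with the block. The count rests on how slide and array quality enter the fit: against the Cre controls it was 0 without a block, 18 with scanner as the block and 461 with arrays weighted by quality, and the 5 mutants of slide 2 had no control beside them. Without Upk2-Cre 2 and Trp53 het 3 the blocked count fell from 57 to 5 (Defb4, Elmod1, Idi2, Il1r2 and Psors1c2, all lower). Without all 8 arrays of opposing sex it was 1, Pgr, the progesterone receptor, at -6.03 (limma adjusted p = 0.000573), and none of the 57 passed. All 57 kept their direction, which the choice of these genes in a fit that holds the same arrays nearly fixes. The 56 lower genes had blocked differences from -6.1 to -0.93 with a median of -3.81. All 56 were below 0 within slide 1 and within slide 3, which the choice by this fit nearly fixes. Their median against Trp53 het was 0.34. Of the squamous list 4 were among them: Lor at -4.11 (adjusted p = 0.0188), Cdsn at -4.62 (adjusted p = 0.0267), Klk7 (adjusted p = 0.0282) and S100a7a, an antimicrobial calcium-binding protein (adjusted p = 0.0418). Gene families were also counted by name after the values were seen. The late cornified envelope family (Lce) gave 12 of its 21 tested members. Other families gave few or none: 0 of 13 Sprr genes, 0 of 38 keratins, 2 of 18 Klk, 2 of 9 Defb and 2 of 4 Il1f genes.

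The lowest adjusted p-values of the blocked fit belonged to Psors1c2, a secreted protein of cornifying epithelium, and Defb4, a beta-defensin. Psors1c2 was at 0.95, 3.87, 1.85 and 3.24 in the Cre controls, between -5.51 and 1.61 with a median of -1.41 in mutants, and at -2.83, -2.58 and -1.04 in Trp53 het; its blocked difference was -5.07 (limma adjusted p = 0.00351). Defb4 was at -2.2, -1.37, -1.41 and 0.57 in the Cre controls, between -7.82 and -0.78 with a median of -5.84 in mutants and at -5.31, -5.18 and -4.85 in Trp53 het; its blocked difference was -5.11 (limma adjusted p = 0.00351). Defb4 was well above background on 4 of 12 mutant arrays, so the size of its difference leans on dim spots. Anxa9 (-2.47, adjusted p = 0.00856), Il1r2 (-3.53, adjusted p = 0.00983) and Mfap3l (-1.36, adjusted p = 0.017) passed too. So did Cyp1b1, a cytochrome that the aryl hydrocarbon receptor induces, at -3.05 (adjusted p = 0.035), which differed by 1.3 from Trp53 het. The gene that was higher, Ffar4, a receptor for long-chain fatty acids, was at -5.2, -4.94, -7.03 and -5.29 in the Cre controls, between -4.99 and 0.63 in mutants and at -1.98, -1.9 and -2.79 in Trp53 het. Its blocked difference was 4.03 (limma adjusted p = 0.017), and it was well above background on 10 of 12 mutant arrays and 1 of 4 Cre controls, so the size of its difference rests on dim spots.

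Lor and Ivl (involucrin) are shown by sequence because they are the classic envelope genes of the squamous list and hold the AP-1 motif TGANTCA, the binding letters of Fos and Jun, in the 250 bases before their start. The sequences are from RefSeq on GRCm38.p6, 5′ to 3′ on the gene's strand, with the motif in capitals.
Lor, chr3:92083143-92083392, minus strand: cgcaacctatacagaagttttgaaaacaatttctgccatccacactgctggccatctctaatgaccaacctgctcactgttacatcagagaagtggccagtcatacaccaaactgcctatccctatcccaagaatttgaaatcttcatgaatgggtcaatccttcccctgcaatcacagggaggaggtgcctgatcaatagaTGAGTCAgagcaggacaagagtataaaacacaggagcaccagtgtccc
Ivl, chr3:92573736-92573985, minus strand: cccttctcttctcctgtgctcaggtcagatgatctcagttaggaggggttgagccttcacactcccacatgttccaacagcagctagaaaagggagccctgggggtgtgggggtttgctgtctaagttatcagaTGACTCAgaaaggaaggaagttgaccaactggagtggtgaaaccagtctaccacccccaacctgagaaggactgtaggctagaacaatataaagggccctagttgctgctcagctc
On both strands TGANTCA was found in 10 of the 22 squamous genes with a promoter entry (45.5%) and in 5 of 45 of the lower genes of the blocked fit (11.1%), against 821 of 12794 tested genes (6.42%). A match is a description of these letters only.

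Basal and luminal urothelial genes differed less. Of 20 basal genes 16 were below 0, beside 56.5% of all genes, with a median of -0.23. In either direction 0 reached the unadjusted threshold. The basal direction turned with the slide. The median was -0.9 within slide 1, where 0 of 20 were above 0, and 0.1 within slide 3, where 13 were. With slide as a block it was -0.32, with 2 lower at that threshold (3.46% of all genes). Krt5 was 8.32 ± 0.57 (SD, n = 12) in mutants and 8.89 ± 0.66 (SD, n = 7) in others, a difference of -0.57 (limma adjusted p = 0.755); Krt14 differed by -0.53 and Krt6a by -0.76. Of 23 luminal genes 19 were below 0, beside 56.5% of all genes, with a median of -0.39. Beside 4.19% of all genes, 2 luminal genes were lower at the unadjusted threshold. These were Tjp3, a tight junction scaffold, at -0.59 (adjusted p = 0.755 by limma) and Erbb2, a receptor tyrosine kinase, at -0.46. Upk2 and Upk3a, uroplakins of the umbrella cell surface, differed by -0.59 and -0.62. The luminal median was nearer to 0 within slides, at -0.03 in slide 1 and -0.21 in slide 3. With slide as a block it was -0.12, and 1 gene was lower at the unadjusted threshold (3.46% of all genes). The basal and luminal markers were thus present on both sides, in keeping with the tissue label. Of 12 further keratins 11 were below 0, beside 56.5% of all genes, with a median of -0.32.

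Endothelial genes had higher means in mutants throughout the list, without any passing, and the arrays of the sides overlapped. All 12 were above 0, against 43.5% of all genes, with a median of 1.08. At the unadjusted threshold 8 of 12 were higher, against 2.23% of all genes. The median was 1.1 against the Cre controls, where 4 were higher at that threshold (2.6% of all genes). Against Trp53 het it was 1.1 as well, where 1 was higher. Without the 8 arrays of opposing sex the median from all others was 1.41 and 6 were higher. Cldn5, the tight junction claudin of vessels, ran from -0.08 to 4.31 with a median of 0.63 in mutants. It was at 1.05, -1.69, -1.32 and -0.52 in the Cre controls and at 0.4, -1.28 and 0.31 in Trp53 het, so 5 of 12 mutants lay above every other array. The difference was 1.84 (SE 0.66, adjusted p = 0.755 by limma). Esam, an adhesion molecule of endothelium, was at 1.19 (SE 0.42), Cdh5 (VE-cadherin) at 1.43 and Tie1, a receptor kinase of vessels, at 1.61. In both slides 10 of 12 were above 0, against 20.7% of all genes. The size differed between the slides, whose mutants also differ in allele and scanner: the median was 1.77 within slide 1 and 0.56 within slide 3. With slide as a block it was 0.98, and 2 of 12 were higher at the unadjusted threshold (1.14% of all genes). The list's score ran from -0.92 to 2.4 with a median of -0.05 in mutants, and from -1.53 to 0.23 with a median of -0.52 in others. Its highest values, 2.05 to 2.4, came from single arrays of Krt5 R270H, Upk2 R172H and Upk2 R270H. The Krt5 R172H arrays lay between -0.41 and 0.22, so the size of the list's difference leans on few arrays.

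Genes of matrix remodelling showed the like. All 20 were above 0, against 43.5% of all genes, with a median of 0.93. At the unadjusted threshold 10 were higher, against 2.23% of all genes. Against the Cre controls the median was 1.3 and 13 were higher (2.6% of all genes), and against Trp53 het the median was 0.44 and 1 was higher. Trp53 het against the Cre controls, which shares arrays with both, gave a median of 0.76. Adamts4, a protease of aggrecan and versican, ran from -1.2 to 3.26 with a median of 0.22 in mutants, above all Cre controls at -1.29, -2.57, -2.22 and -2.33. Trp53 het was at 0.71, -2.4 and -0.13, so its arrays fell on both sides of the lowest mutant. The difference was 1.95 from all others (SE 0.6, adjusted p = 0.755 by limma) and 2.59 from the Cre controls. Timp1, an inhibitor of metalloproteinases, was 4.38 ± 0.97 (SD, n = 12) in mutants, 2.47 ± 0.6 (SD, n = 4) in Cre controls and 4.26 ± 0.64 (SD, n = 3) in Trp53 het, so here the Cre controls alone were low. Mmp3, the protease stromelysin 1, stood differently: it was at 1.7 (SE 0.51) from all others, 1.42 from the Cre controls and 2.07 from Trp53 het, but 0.24 within slide 3. Tnc (tenascin C) was at 1.49, Loxl2, a lysyl oxidase, at 1.0 and Plaur, the urokinase receptor, at 0.83. Within both slides 16 of 20 were above 0, against 20.7% of all genes. The list's median was 1.31 within slide 1, 0.42 within slide 3 and 0.79 with slide as a block. With the block 1 of 20 was higher at the unadjusted threshold (1.14% of all genes). Without the 8 arrays of opposing sex, and with no block, the median from all others was 1.12. At that threshold 4 genes were then higher.

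Of 13 genes linked to epithelial-mesenchymal transition 11 were above 0, against 43.5% of all genes, with a median of 0.63. At the unadjusted threshold 3 were higher, against 2.23% of all genes. They were Vim (vimentin) at 1.44, and the transcription factors Twist1 at 1.21 and Snai1 at 1.09. Twist1 was well above background on 8 of 12 mutant and 2 of 7 other arrays. The list's median was 1.08 within slide 1, 0.29 within slide 3 and 0.57 with slide as a block, where 0 genes reached that threshold. Without the 8 arrays of opposing sex the median was 0.82 and 2 genes were higher at that threshold. Of 14 fibroblast genes 11 were above 0, against 43.5% of all genes, with a median of 0.75. At the unadjusted threshold 2 were higher (2.23% of all genes), Cd34 at 1.1 and the collagen Col3a1 at 0.96. Fap, a protease of activated fibroblasts, was -1.2 ± 0.6 (SD, n = 12) in mutants, -2.46 ± 0.62 (SD, n = 4) in Cre controls and -1.02 ± 0.17 (SD, n = 3) in Trp53 het. The fibroblast median changed sign between slides, at 1.84 within slide 1 and -0.48 within slide 3. Vim, Twist1, Cd34 and the matrix genes are made by stromal cells as well, and the share of such cells was not measured.

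**Figure D4:**
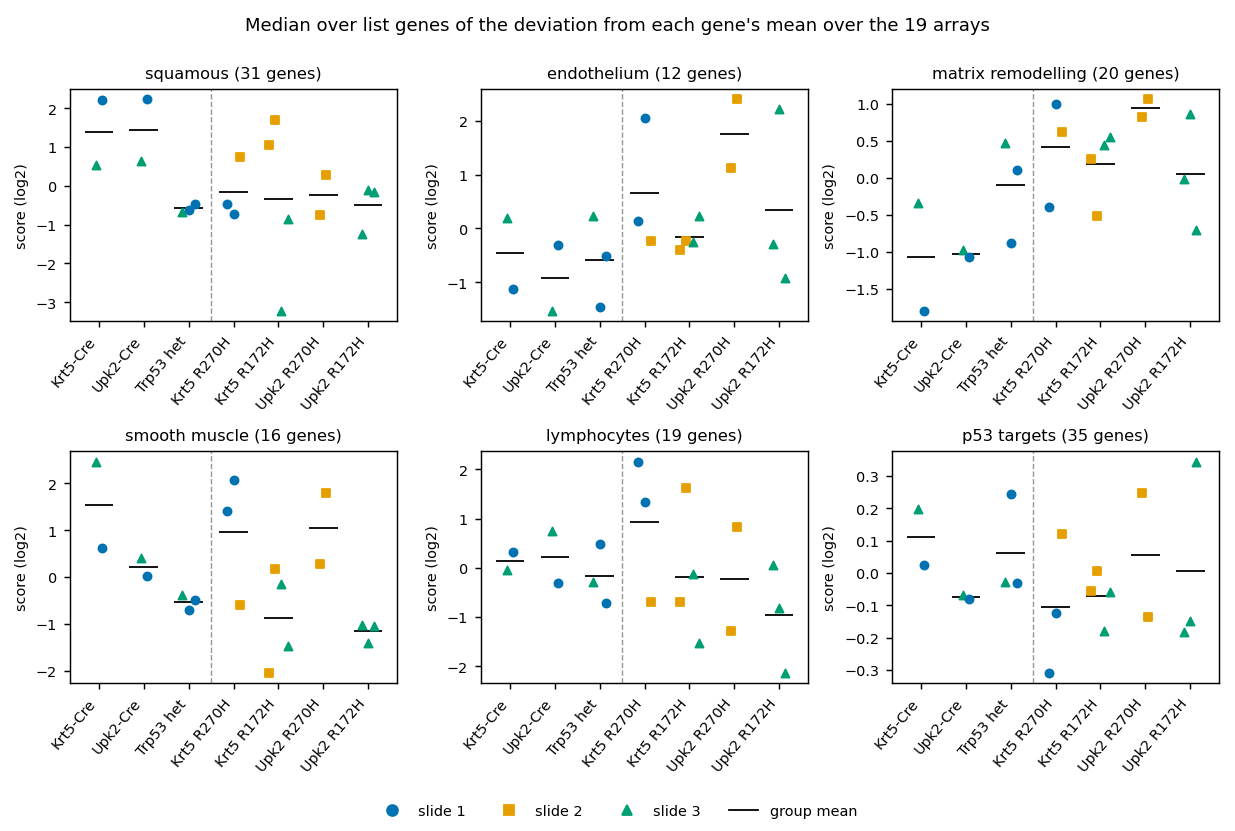
Score of 6 gene lists on each array: the median over the list's genes of each gene's log2 level minus that gene's mean over the 19 arrays. Points are arrays coloured by slide, black lines group means, and the dashed line parts the 7 other BBN arrays (left) from the 12 mutants (right). For the squamous list 2 Cre controls are highest, and no list keeps all mutants apart from all others.

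Muscle and lymphocyte genes turned with the slide. All 16 smooth muscle genes were above 0 within slide 1 (median 1.87) and 0 of 16 within slide 3 (median -1.91), leaving -0.42 overall. Myh11, the smooth muscle myosin, differed by 2.01 within slide 1 and by -2.25 within slide 3. The 19 tested lymphocyte genes had a median of 1.85 within slide 1, -1.28 within slide 3 and -0.16 overall. The 2 mutants of slide 1 were Krt5 R270H and the 5 of slide 3 were all R172H. Slide, scanner, extraction protocol and allele therefore cannot be told apart for these values or for any other difference between the 2 slides. Skeletal muscle (8 genes, median -0.08), adipocyte (8, -0.19) and nerve genes (9, -0.06) gave 2.59, 2.53 and 1.62 within slide 1 and -0.49, -0.23 and -0.98 within slide 3. Over all genes the median was -0.11 within slide 1 and -0.01 within slide 3. The smooth muscle score ran from -2.05 to 2.07 in mutants and from -0.71 to 2.46 in others, and its part in the endothelial and matrix values was not tested. None of 10 markers of male accessory glands was bright enough to be tested.

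**Figure D5:**
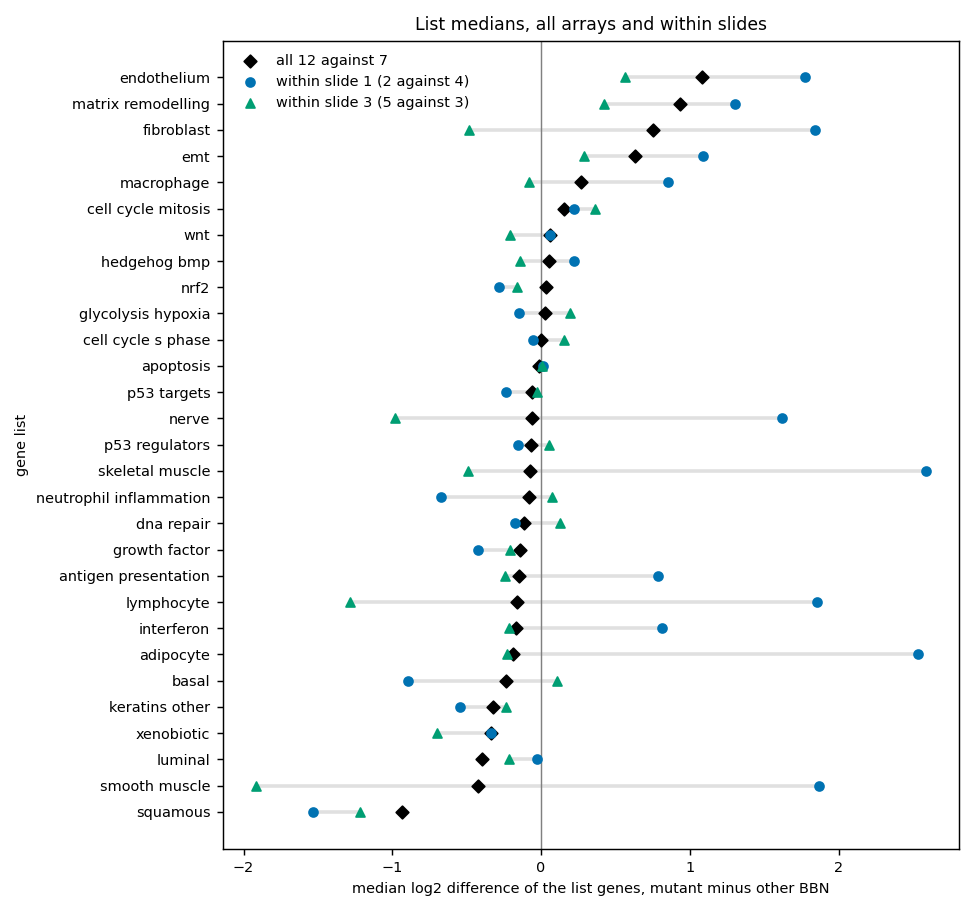
Median log2 difference, mutant minus other BBN, of each gene list over all 19 arrays, within slide 1 (2 mutants, 4 others) and within slide 3 (5 mutants, 3 others). The squamous, endothelial and matrix medians keep their sign in both slides; the smooth muscle, lymphocyte and fibroblast medians are above 0 in slide 1 and below 0 in slide 3.

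Of 20 tested enzymes of foreign compound metabolism 15 were below 0, beside 56.5% of all genes, with a median of -0.34. At the unadjusted threshold 4 were lower, beside 4.19% of all genes: Por, the electron donor of cytochromes P450, at -0.43, Ugt1a6a, a glucuronosyltransferase, at -0.51, and the cytochromes Cyp2f2 at -1.29 and Cyp3a13 at -1.43. The median was -0.7 against the Cre controls and -0.01 against Trp53 het. From all others the median was -0.34 within slide 1, -0.7 within slide 3 and -0.09 without Krt5-Cre 1. Without the 8 arrays of opposing sex it was -0.15, with 0 genes lower and 1 higher at the unadjusted threshold. Leaving out only Upk2-Cre 2 and Trp53 het 3 gave -0.31, with 0 lower. Cyp1a1, induced by the aryl hydrocarbon receptor, was at -1.65 but well above background on 2 of 12 mutant arrays.

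Cell cycle genes barely separated the sides. Of 30 mitotic genes 23 were above 0, beside 43.5% of all genes, with a median of 0.16. In either direction 0 mitotic genes reached the unadjusted threshold. Mki67, a marker of cycling cells, was 3.44 ± 0.62 (SD, n = 12) in mutants and 3.46 ± 0.56 (SD, n = 7) in others. The 29 S phase genes had a median of 0.0, with 0 at that threshold. Counts from here on are again at the unadjusted threshold, and no gene among them passed the adjusted test. Of all genes 2.23% were higher and 4.19% lower at this threshold, and single genes of a list are near such a background, so they are named as values and say nothing of the list. DNA repair genes (22, median -0.11) had 2 lower, Mgmt, which removes alkyl groups from guanine, at -1.16 and Brca2 at -0.78. Of 17 apoptosis genes (median -0.01) 1 was lower, Bad, a promoter of cell death, at -0.38.

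Among 26 Wnt pathway genes (median 0.06) 3 were lower, the ligands Wnt7b at -0.79 and Wnt4 at -0.88 and the receptor Fzd10 at -0.81. Of 19 growth factor genes (median -0.14) 2 were lower, Erbb2 and Fgfr4, a fibroblast growth factor receptor, at -1.86, which was dim. The 22 genes of neutrophils and inflammation (median -0.08) had 2 higher, Il6 and Saa3, an acute phase protein, at 2.27, and 2 lower, Il1r2 at -1.57 and Csf3, the granulocyte growth factor, at -1.42. Macrophage genes (15, median 0.27) had 1 higher, the scavenger receptor Msr1 at 0.92, and glycolysis genes (18, median 0.02) had 1 higher, Pfkp, a phosphofructokinase, at 0.56. Interferon (23, median -0.17), antigen presentation (16, -0.15), Nrf2 (16, 0.03) and hedgehog or BMP genes (15, 0.06) had 0 at the unadjusted threshold, and nerve genes had 1, Uchl1 at 0.81. The interferon median was 0.81 within slide 1, where 22 of 23 were above 0, -0.21 within slide 3 and 0.16 with slide as a block. Antigen presentation gave 0.78 (15 of 16), -0.24 and 0.19 in the same order, so the sign of both lists turned with the slide.

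No gene passed the test across the 4 mutant groups: with limma 0 of 16200 (0%) passed and 748 (4.62%) had an unadjusted p under 0.05. Whether the mutant minus Cre control difference depended on the driver, Krt5 or Upk2, was tested as an interaction, where 0 (0%) passed and 404 (2.49%) had an unadjusted p under 0.05. Among the 3 groups of other arrays 0 (0%) passed and 520 (3.21%) had an unadjusted p under 0.05. These groups hold 2 to 4 arrays each, which limits what the tests can detect.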

How the data were processed

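Total RNA of 22 mouse bladders was hybridised to Agilent arrays in 1 colour. The deposited scanner files give an intensity for every spot; per the file headers the software was Agilent Feature Extraction 11.0.1.1 (9.1 per the submitters' processing notes) and background was subtracted. In the headers the extraction protocol of slide 3 differs from that of slides 1 and 2. A deposited table of log2 values, normalized between arrays by steps that the labels do not describe, served as an alternative. From each processed signal log2 was taken and the array's 75th percentile subtracted, control and flagged spots (53 to 301 an array) left out. Of 56605 probes, 32994 carried 1 symbol and 23611 none, giving 22911 genes. The brightest probe stood for a gene, and 16200 genes well above background on at least 4 of 19 arrays were tested.

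Differences were tested with limma 3.58.1 in R 4.3.3 (lmFit, eBayes, 19 arrays, Benjamini-Hochberg over all genes, adjusted p at or under 0.05). The comparison with 7 others fitted 2 classes, the others 3 classes or the single groups. The method was tested on simulated data, with 200 genes planted among 16200. Genes were named if they led a comparison by p-value, belonged to the p53 and urothelial set, or reached an unadjusted p under 0.05 within a list; other genes were chosen after their values were seen. The members and the 30 gene lists were chosen with earlier results of these data known. Promoters were RefSeq sequences (GRCm38.p6), matched by symbol. Alternatives were background, scaling, probe and expression filters, array weights, slide, scanner, sex, replicate number, pooled codes and each array left out; single slides against Cre controls, array weights with slide, the first scanner alone, and arrays of opposing sex left out with slide (and only the controls among them) were added after seeing the data.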

Additional observations from a re-analysis of the deposited data

Results flagged for a closer look

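Sets of arrays were examined for 31 genes and 29 gene list scores in Krt5 R172H (4 arrays), the Cre controls (4) and the 7 other arrays. Of these 180 sets, 7 had an array far from the rest by Dixon's criterion, which chance gives in about 1 of 20. The count is no higher than chance would give, and the Cre controls are part of the 7 others. Upk3a was at -4.36 on Upk2-Cre 1, while the other 3 Cre controls lay between -0.72 and -0.32. In the Krt5 R172H group, replicate 4 stood apart for Egr4, at -3.72 against -2.8 to -2.63, and for Ddx19a, at -1.67 against -2.16 to -2.12. The interferon score was -1.34 on Upk2-Cre 2, with the other 6 controls between 0.02 and 1.0. Krt5-Cre 1 had a smooth muscle score of 2.46 against -0.71 to 0.62 in the rest of the 7 controls. The same array had a skeletal muscle score of 1.6, against -0.06 to 0.09 in the other Cre controls and -0.93 to 0.09 in the rest of the 7.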

How the results depend on the processing

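Against all 7 other arrays, the count of genes passing stayed at 0 under every alternative run but the replicate block, which gave 1 (Ang2 at 1.81, adjusted p = 0.0303), and was 0 with each array left out. Deviations from the group means of the 48 same-numbered pairs of different groups correlated from -0.428 to 0.509 (median 0.0809). The 105 differently numbered pairs gave -0.509 to 0.443 (median -0.025). These ranges overlapped, and whether replicate numbers pair arrays was not tested. Against the Cre controls the count of 0 became 1 with normexp, the deposited table or an intensity trend (Mfap3l each time). It became 2 with the filter on all arrays, a covariate of Xist minus Y-linked genes or the normals kept, 18 with scanner as a block, 57 with slide as a block and 461 with array weights (120 higher, 341 lower), 54 of them among the 57. Chosen after seeing the data, it was 3 within slide 3, 75 with array weights and slide block, and with slide block 5 without the 2 controls and 1 without all 8 arrays of opposing sex; leaving out single arrays gave 0 to 1 (Mfap3l without Upk2 R270H 2, Krt5 R172H 2, Upk2-Cre 1 or Upk2 R172H 2). Against Trp53 het, array weights with slide block gave 41, and leaving out arrays 0. Among mutant groups array weights gave 3, slide 2, scanner 1 and weights with slide 2 (0 with arrays left out). Among the other groups slide gave 4 and weights with slide 22, and leaving out arrays 0 to 1 (without Upk2-Cre 2). The driver interaction gave 0 to 2 (1 without Upk2-Cre 2, 2 without Krt5-Cre 1); it could not be fitted without the arrays of opposing sex. The cause of these shifts was not tested. Over 24 alternatives the median kept its sign for the squamous (-1.82 to -0.66), endothelial (0.44 to 1.41), matrix (0.24 to 1.32) and transition lists (0.03 to 0.89), and turned in 1 for the fibroblast (-0.33) and 2 for the smooth muscle list (up to 0.23). Dim spots limit Mttp, Ang2, Il6, Egr4, Ffar4 and Defb4.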

Other observations

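Of the probes that carry no gene symbol, 11380 were bright enough to be tested in the same way. In mutants against the 7 other arrays 0 of them passed limma's adjusted test and 584 had an unadjusted p under 0.05.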
